A study of Mus musculus with 8 samples.

Results

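Border-associated macrophages are the resident macrophages of the meninges, the perivascular spaces and the choroid plexus, and 10 of their genes were followed in hippocampal RNA of control and SAP97-cKO mice. The genes were taken by symbol from the deposited table of 25834 genes. They were Mrc1, Cd163, F13a1, Lyve1, Pf4 and Ms4a7, which mark these macrophages or a part of them, and Cd74, H2-Aa, H2-Ab1 and H2-Eb1, which encode the MHC class II complex and its chaperone. All 10 were in the table and all 10 had enough reads to be tested among the 16251 genes that passed the filter on low counts.

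The libraries came from hippocampi of 8 male mice, 4 control and 4 SAP97-cKO, with 1 library per mouse. SAP97-cKO mice carried Nestin-cre+/- and SAP97fl/fl, so that Dlg1, the gene for SAP97, was deleted by a Cre recombinase driven from the Nestin promoter. The methods list littermates with Nes-cre+/- alone, with SAP97fl/fl alone and wild-type littermates as controls, and which of these each control library was, like the age at which RNA was taken, is not given in the sources used here. Library totals ran from 37388177 to 37426572 counts, so depth was nearly equal. Dlg1 had a mean of 4338 ± 336 TMM-normalized counts in the control group and 2393 ± 470 in the SAP97-cKO group (SD, n = 4 each), without overlap (log2 fold change -0.86, standard error or SE 0.12, edgeR adjusted p = 0.143).

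Border-associated macrophages sit at the interfaces of the brain with blood and cerebrospinal fluid, outside the parenchyma that microglia occupy. They take up debris, haemoglobin and hyaluronan through scavenger receptors, and a subset of them presents peptides on MHC class II to helper T cells. They arise from blood-forming progenitors, whereas the Nestin promoter is active in the neural progenitors that give neurons, astrocytes and oligodendrocytes. Several of the genes have other sources: Lyve1 is also a gene of lymphatic endothelium, Pf4 of megakaryocytes and platelets, and MHC class II of dendritic cells and B cells. In RNA from whole tissue, fewer macrophages and less RNA per macrophage cannot be told apart.

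For all 10 genes the mean was lower in SAP97-cKO than in control hippocampi, and for none did the difference pass the FDR of 0.25 that the study uses. The mean of the SAP97-cKO libraries ran from 38.5% of the control mean for H2-Aa to 76.4% for Pf4. The 4 MHC class II genes lay at 38.5% to 44.7% and Lyve1 at 46.7%, while the other 5 genes lay at 65.5% to 76.4%. At an FDR under 0.25, edgeR's quasi-likelihood test placed 0 of the 10 lower and 0 higher, where 0.283% and 0.0123% of all genes tested were placed lower and higher. Limma-voom also placed 0 of the 10 lower (0.295% of all genes tested), and DESeq2 placed 6 lower (3.62% of all genes tested): Cd74, H2-Aa, H2-Ab1, H2-Eb1, Lyve1 and Mrc1. At an unadjusted p under 0.05, edgeR had 6 of the 10 lower, the same 6, beside 7.01% of all genes tested. A log2 fold change below 0 was found for 10 of 10 genes and for 52.8% of all genes tested, and one below -1, a fold under 0.5, for 5 of 10 genes and 1.54% of all. The median log2 fold change was -0.85 over the 10 genes, -1.23 over the MHC class II genes and -0.48 over the other 6, beside -0.012 over all genes tested. Control 2 held the highest and SAP97-cKO 4 the lowest value of each of the 10 genes. Without both libraries 8 of the 10 were below 0 and 0 passed the threshold, and with the level of meningeal fibroblast genes as a covariate 2 of the 10 were below 0. The fibroblast level itself differed between the groups, so genotype and fibroblast level cannot be told apart in that fit.

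**Figure D1:**
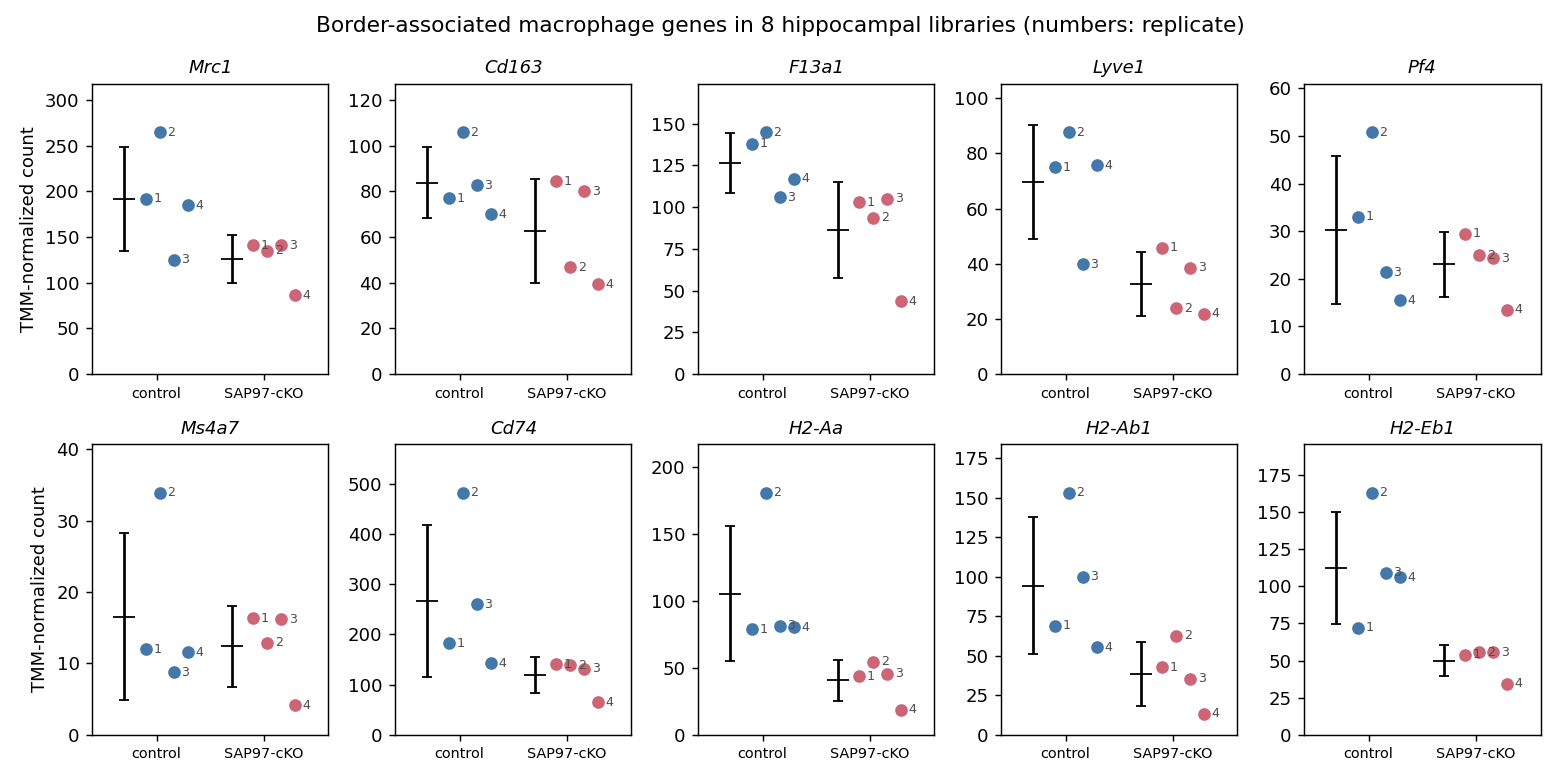
TMM-normalized counts of the 10 genes in each hippocampal library (vertical axis, one panel per gene; points are libraries labelled with their replicate number; bars are mean ± SD of 4 libraries). In every panel control 2 is the highest and SAP97-cKO 4 the lowest of the 8 libraries.

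Mrc1 (ENSMUSG00000026712; plus strand of chromosome 2 of GRCm38, 14229392 to 14332057) encodes the mannose receptor CD206, an endocytic receptor for glycoproteins. Its TMM-normalized counts were 192, 265, 125 and 185 in controls 1 to 4 and 141, 135, 141 and 86.2 in SAP97-cKO 1 to 4. Control 2 stood highest and SAP97-cKO 4 lowest, and control 3 lay below 3 SAP97-cKO libraries, so the groups overlapped. The means were 192 ± 57.2 and 125.7 ± 26.5 (SD, n = 4 each), a log2 fold change of -0.61 (SE 0.23, edgeR adjusted p = 0.383; exact two-sided permutation test, p = 0.114).

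Cd163 (ENSMUSG00000008845; plus strand of chromosome 6, 124304656 to 124330527) encodes the receptor that takes up haemoglobin bound to haptoglobin. It had 77.0, 106, 82.6 and 69.9 normalized counts in the control libraries and 84.5, 46.8, 80.0 and 39.4 in the SAP97-cKO libraries. SAP97-cKO 1 and 3 lay within the control range and SAP97-cKO 2 and 4 lay below it. The means were 83.78 ± 15.5 and 62.7 ± 22.9 (SD, n = 4 each), a log2 fold change of -0.42 (SE 0.27, edgeR adjusted p = 0.537; exact permutation p = 0.257).

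F13a1 (ENSMUSG00000039109; minus strand of chromosome 13, 36867178 to 37050244) encodes the A subunit of coagulation factor XIII, a transglutaminase that cross-links fibrin. The control libraries held 138, 145, 106 and 117 normalized counts and the SAP97-cKO libraries 103, 93.6, 105 and 43.6. The groups did not overlap, but SAP97-cKO 1 and 3 came close to control 3, and SAP97-cKO 4 stood well below the other libraries. The log2 fold change was -0.55 (SE 0.25, edgeR adjusted p = 0.428; exact permutation p = 0.0286, the smallest that 4 libraries against 4 can give).

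Lyve1 (ENSMUSG00000030787; minus strand of chromosome 7, 110850607 to 110863239) encodes a hyaluronan receptor that marks perivascular and meningeal macrophages. It had 75.0, 87.7, 39.8 and 75.7 normalized counts in controls and 45.8, 23.9, 38.5 and 21.8 in SAP97-cKO. Of the controls, only control 3 lay in the SAP97-cKO range, and the other 3 lay above every SAP97-cKO library. The log2 fold change of Lyve1 was -1.09 (SE 0.31, edgeR adjusted p = 0.331; exact permutation p = 0.0571), the largest of the 6 genes outside MHC class II.

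Pf4 (ENSMUSG00000029373; plus strand of chromosome 5, 90772435 to 90773383), the chemokine CXCL4, had 33.0, 50.8, 21.4 and 15.5 normalized counts in controls and 29.5, 24.9, 24.3 and 13.5 in SAP97-cKO. Ms4a7 (ENSMUSG00000024672; minus strand of chromosome 19, 11321039 to 11336146), a tetraspanning membrane protein, had 12, 33.9, 8.74 and 11.6 in controls and 16.3, 12.9, 16.2 and 4.15 in SAP97-cKO. For both genes the groups overlapped over most of their range, and for Ms4a7 SAP97-cKO 1, 2 and 3 were above controls 1, 3 and 4. The log2 fold changes were -0.38 for Pf4 (SE 0.39, edgeR adjusted p = 0.690; exact permutation p = 0.514) and -0.41 for Ms4a7 (SE 0.52, adjusted p = 0.755; exact permutation p = 0.686). Depth limits both: the raw count of Ms4a7 was 4 in SAP97-cKO 4, with an exact 95% Poisson interval of 1.09 to 10.2, and 34 in control 2, with an interval of 23.5 to 47.5, and these intervals cover counting error only. Without control 2 the log2 fold change was -0.01 for Pf4 and 0.20 for Ms4a7.

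MHC class II molecules are pairs of an alpha and a beta chain that are assembled in the endoplasmic reticulum on the invariant chain and loaded with peptide in endosomes. Their genes share a proximal promoter module, in which an X box is bound by the RFX complex, a Y box by NF-Y, and the coactivator CIITA is recruited to both. Of the 10 genes, 7 had a RefSeq promoter window of 300 bases on GRCm38.p6, which gave 9 windows. Cd74, Lyve1 and H2-Ab1 had none. The bases just before the start of H2-Aa (chr17:34287824-34287993, minus strand) and of H2-Eb1 (chr17:34305697-34305866, plus strand) are shown because H2-Aa had the largest log2 fold change of the 10 genes and H2-Eb1 the smallest p. Both are written 5′ to 3′ and end at the base before the annotated start. Capitals mark CCAAT on either strand, the letters of the Y box, and AGCAACNG on either strand, the core of the X box.
H2-Aa: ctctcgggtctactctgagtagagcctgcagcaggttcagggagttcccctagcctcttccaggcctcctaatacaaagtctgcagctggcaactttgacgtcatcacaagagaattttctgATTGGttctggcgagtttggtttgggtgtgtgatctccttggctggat
H2-Eb1: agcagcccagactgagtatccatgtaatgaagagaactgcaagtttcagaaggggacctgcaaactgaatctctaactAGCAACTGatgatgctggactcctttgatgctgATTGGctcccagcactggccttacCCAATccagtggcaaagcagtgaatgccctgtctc
Counted from the annotated start as 0, H2-Eb1 held AGCAACTG at -92 to -85, ATTGG at -59 to -55 and CCAAT at -35 to -31. H2-Aa held ATTGG at -48 to -44 and no match to AGCAACNG. The search took only this exact string, so the lack of a match does not mean that H2-Aa lacks an X box. Over all 32851 promoter windows, 37.4% held CCAAT and 5.14% held AGCAACNG, so the first motif is common, and it was also present in a window of each of Mrc1, Cd163, F13a1, Pf4 and Ms4a7. GAGGAAGT, a PU.1 motif, was in a window of F13a1 and of Pf4 (3.2% of all windows), and the interferon-stimulated response element, searched as GAAA, any 2 bases and GAAA, was in 0 of the 9 windows (3.44% of all windows), both strands being searched for each motif.

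Cd74 (ENSMUSG00000024610; chromosome 18) encodes the invariant chain, which is also the chaperone that keeps the peptide groove closed until the endosome is reached. It had 182, 482, 260 and 143 normalized counts in controls 1 to 4 and 141, 139, 132 and 65.4 in SAP97-cKO 1 to 4. The groups did not overlap, though control 4 and SAP97-cKO 1 were nearly equal, and control 2 stood far above the other controls. The means were 266.8 ± 152 and 119.2 ± 36.1 (SD, n = 4 each), with a log2 fold change of -1.16 (SE 0.37, edgeR adjusted p = 0.347; exact permutation p = 0.0286).

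H2-Aa (ENSMUSG00000036594; minus strand of chromosome 17, 34282744 to 34287823) encodes the alpha chain of the I-A molecule. Its normalized counts were 79.0, 181, 81.6 and 80.6 in controls and 43.8, 54.7, 45.6 and 18.7 in SAP97-cKO. Controls 1, 3 and 4 lay within a few counts of each other, control 2 stood far above them, and all SAP97-cKO libraries were below all controls. The log2 fold change of H2-Aa was -1.37 (SE 0.37, edgeR adjusted p = 0.316; exact permutation p = 0.0286), the largest of the 10 genes.

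H2-Ab1 (ENSMUSG00000073421; plus strand of chromosome 17, 34257689 to 34269419) encodes the beta chain that pairs with H2-Aa. It had 69.0, 153, 100 and 55.3 normalized counts in controls and 42.8, 62.7, 35.5 and 13.5 in SAP97-cKO. The ranges crossed, since SAP97-cKO 2 lay above control 4, and the log2 fold change was -1.29 (SE 0.43, edgeR adjusted p = 0.352; exact permutation p = 0.0571). Within a library, the ratio of H2-Aa to H2-Ab1, each per kilobase of exon, was 0.777 ± 0.177 in controls and 0.772 ± 0.159 in SAP97-cKO (SD, n = 4 each; exact permutation p = 0.971), so the means of the ratio of the 2 chains of I-A differed by far less than their spread.

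H2-Eb1 (ENSMUSG00000060586; plus strand of chromosome 17, 34305867 to 34316674) encodes the beta chain of the I-E molecule. The controls held 72.0, 163, 109 and 106 normalized counts and the SAP97-cKO libraries 54.0, 55.7, 55.7 and 34.3. All SAP97-cKO libraries lay below all controls, and 3 of them were within 2 counts of each other. H2-Eb1 had the smallest p of the 10 genes, with a log2 fold change of -1.17 (SE 0.26, edgeR adjusted p = 0.283; exact permutation p = 0.0286). Without scaling of the libraries it passed the threshold (edgeR adjusted p = 0.222, 94 genes lower over all genes).

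In 4 of the 10 genes, F13a1, Cd74, H2-Aa and H2-Eb1, all SAP97-cKO libraries lay below all controls, beside 3.47% of all genes tested. The number of such genes was 4 to 6 when 1 library at a time was dropped. It cannot fall below 4 in this way, so the range is not a check of the result. The log2 fold changes of the MHC class II genes without one library ran from -1.37 to -0.71 for Cd74, from -1.55 to -0.98 for H2-Aa, from -1.62 to -0.95 for H2-Ab1 and from -1.33 to -0.93 for H2-Eb1.

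The same 2 libraries bounded the range of every gene. Control 2 was the highest of the 8 libraries for 10 of 10 genes, and SAP97-cKO 4 was the lowest for 10 of 10. Summed over the MHC class II genes, the normalized counts were 402.2, 980.5, 550.7 and 384.4 in controls 1 to 4 and 281, 312.6, 268.5 and 131.8 in SAP97-cKO 1 to 4. The sum over the other 6 genes was 527.3, 688.6, 383.6 and 475.6 in controls and 419.5, 337.5, 405.2 and 208.6 in SAP97-cKO. The MHC class II sums of the groups did not overlap, and in the other sum control 3 lay below SAP97-cKO 1 and 3. Without control 2 and SAP97-cKO 4, a choice made after seeing the data, 8 of the 10 genes were still below 0 on the log2 scale, at -0.27 for Mrc1, -0.12 for Cd163, -0.26 for F13a1, -0.81 for Lyve1, -0.50 for Cd74, -0.74 for H2-Aa, -0.67 for H2-Ab1 and -0.79 for H2-Eb1. Pf4 was then at 0.17 and Ms4a7 at 0.49, and none of the 10 genes passed the threshold.

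**Figure D2:**
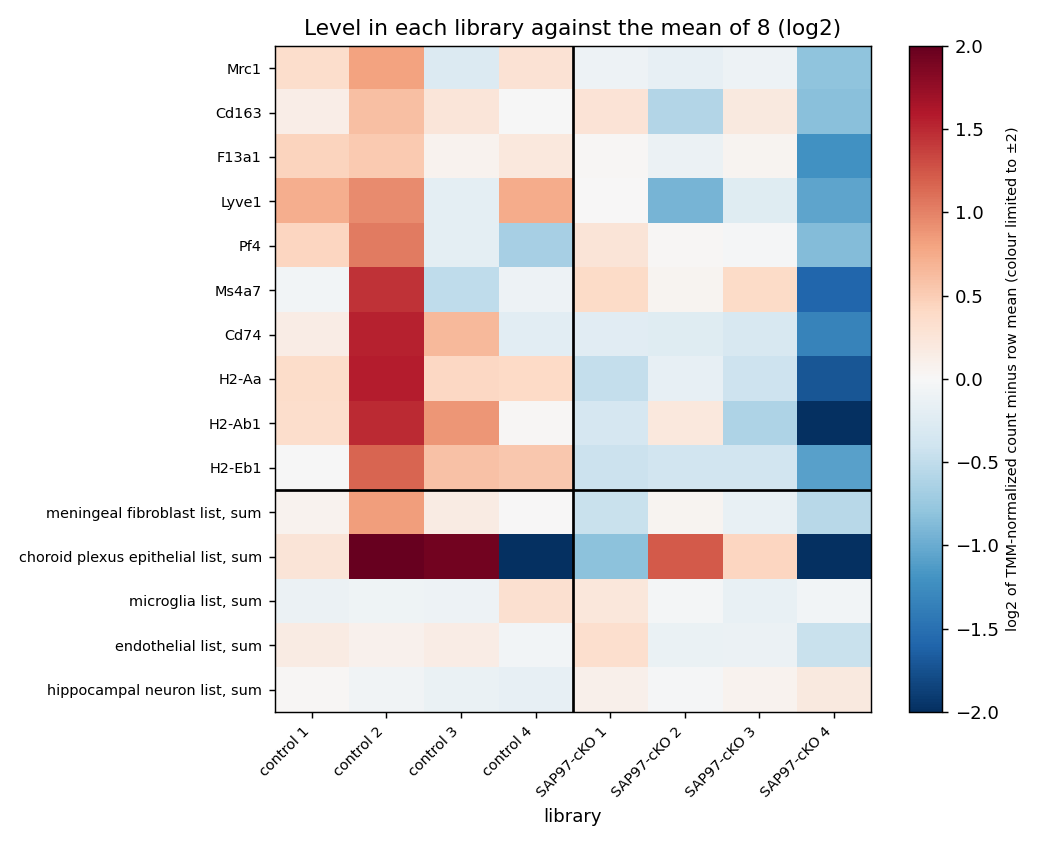
Log2 of the TMM-normalized count in each library (columns) minus the mean of the 8 libraries, for the 10 genes and for the summed counts of marker lists of 5 other cell types (rows; colour limited to ±2). Control 2 is highest for all 10 genes and for the meningeal fibroblast and choroid plexus sums, and SAP97-cKO 4 is lowest for the same rows.

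Summed markers of meningeal fibroblasts and of choroid plexus epithelium, tissues that house these macrophages, were also highest in control 2 and lowest in SAP97-cKO 4, though single genes of the fibroblast list had other orders. In a list of 15 meningeal fibroblast genes, all 15 were tested, 14 were below 0, 6 were lower in SAP97-cKO at an FDR under 0.25 and the median log2 fold change was -1.14. Those with the smallest p were Ogn, a small leucine-rich proteoglycan (-1.32, SE 0.21, edgeR adjusted p = 0.143), Col1a2, a chain of type I collagen (-1.01, 0.18, adjusted p = 0.190), and Slc22a6, an organic anion transporter (-1.58, 0.30, adjusted p = 0.201). The study names these 3 genes from these libraries, and of this list also Col3a1, Slc6a13, Aldh1a2 and Bmp5. The 6 genes past the threshold are all among those it names. The counts and the median of the list are thus not independent evidence of the direction. The summed normalized counts of the fibroblast list were 13744, 23249, 14664 and 13113 in controls 1 to 4 and 9522, 13580, 11816 and 8844 in SAP97-cKO 1 to 4. Control 2 was again highest and SAP97-cKO 4 lowest, and the groups were separated except for SAP97-cKO 2 and control 4. Igf2, the gene with the highest control mean of this list, had 11045 of these counts in control 2 and 1667 in SAP97-cKO 4. The order of the sums therefore depends in part on this gene.

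For the 12 choroid plexus epithelial genes, which include Ttr for transthyretin, all 12 were below 0 with a median log2 fold change of -1.48, and 0 passed the threshold. Their summed counts were 45831, 259969, 145203 and 6758 in controls and 21735, 89320, 51393 and 3903 in SAP97-cKO. Control 2 was highest and SAP97-cKO 4 lowest here too, but control 4 held the second lowest sum, and of the 10 macrophage genes control 4 was the lowest control for 4, Cd163, Pf4, Cd74 and H2-Ab1. With the mean log2 CPM of the choroid plexus list as a covariate, 8 of the 10 genes stayed below 0, with H2-Aa at -1.03, H2-Eb1 at -0.97, H2-Ab1 at -0.80, Cd74 at -0.63 and Lyve1 at -1.09, while Pf4 was at 0.00 and Ms4a7 at 0.04.

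With the mean log2 CPM of the meningeal fibroblast list as a covariate, 8 of the 10 genes were above 0 and 2 below it. H2-Eb1 was at -0.33 and Lyve1 at -0.55, H2-Aa at 0.27, Cd74 at 0.30 and Mrc1 at 0.26, and the adjusted p was at least 0.971 for each of the 10 genes. The fibroblast level itself differed between the groups, and the list holds genes that the study names from these libraries. Genotype and fibroblast level therefore cannot be told apart in these 8 libraries. Per kilobase, the ratio of Mrc1 to Col1a2 was 0.379, 0.395, 0.272 and 0.452 in controls and 0.522, 0.454, 0.520 and 0.489 in SAP97-cKO. Relative to this collagen, Mrc1 was thus higher in every SAP97-cKO library, though SAP97-cKO 2 and control 4 were nearly equal (exact permutation p = 0.0286, 0.171 adjusted over 12 ratios), while the ratio of Cd74 to Col1a2 was 1.89 ± 0.675 and 1.75 ± 0.244 (SD, n = 4 each; exact permutation p = 0.743).

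For microglia, the macrophages of the parenchyma, the genes lay on both sides of 0. All 12 genes of the microglia list were tested, 5 were below 0, 0 passed the threshold in edgeR, 0 had an unadjusted p under 0.05 and the median log2 fold change was 0.04. Tmem119 was at -0.18 (SE 0.14, edgeR adjusted p = 0.621) and P2ry12, a purinergic receptor, at 0.10 (SE 0.12, adjusted p = 0.746). The summed counts of the list lay between 13986 and 18868 in controls and between 13647 and 17618 in SAP97-cKO. With the mean log2 CPM of the microglia list as a covariate, all 10 genes stayed below 0, with Mrc1 at -0.61, Cd74 at -1.06 and H2-Aa at -1.34. H2-Aa, H2-Eb1 and Lyve1 then passed the threshold, in a fit that placed 538 of all 16251 genes lower and 478 higher, against 46 and 2 without the covariate.

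**Figure D3:**
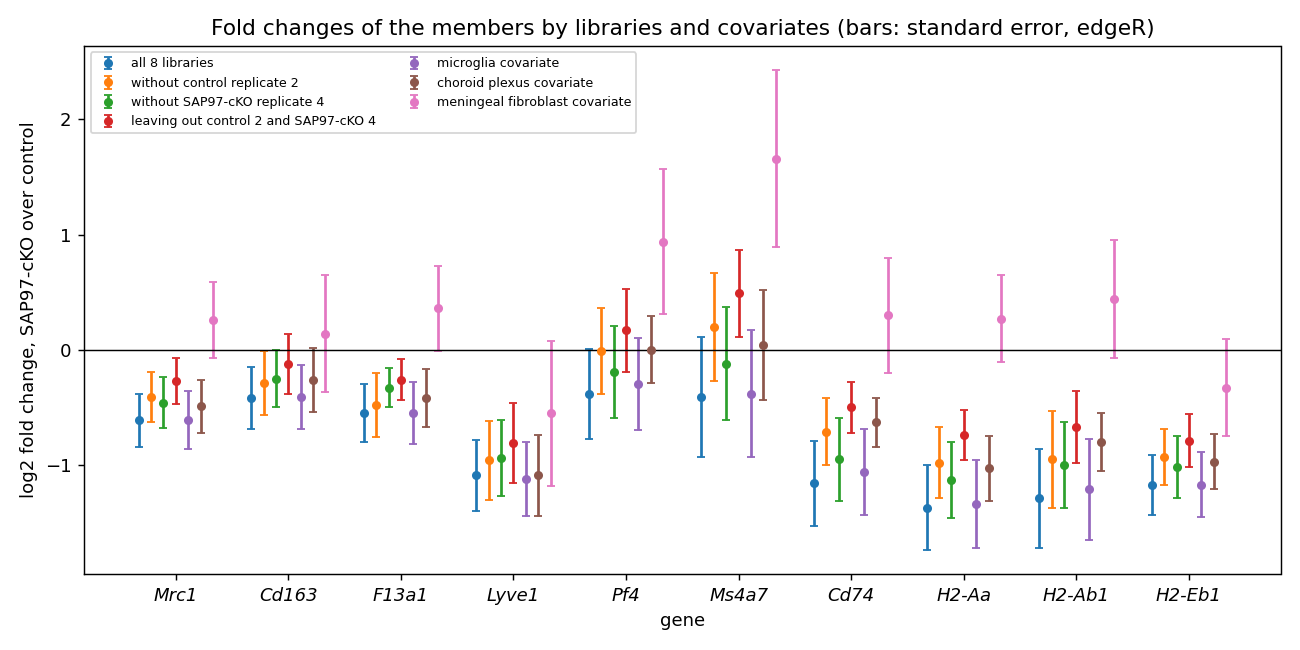
Log2 fold change (SAP97-cKO over control, vertical axis; points are edgeR estimates, bars standard errors) of the 10 genes with all 8 libraries, without control 2, SAP97-cKO 4 or both, and with the mean level of a marker list as a covariate. The points with the microglia covariate stay close to those with all libraries, and with the meningeal fibroblast covariate 8 of 10 lie above 0.

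The difference between both kinds of macrophage was also taken within each library. The ratio of Mrc1 to P2ry12, each per kilobase, was 0.0499, 0.0668, 0.0319 and 0.0357 in controls and 0.0258, 0.0295, 0.0353 and 0.0208 in SAP97-cKO. The ratio of Cd74 to P2ry12 was 0.249 ± 0.154 in controls and 0.0996 ± 0.0287 in SAP97-cKO (SD, n = 4 each). Both ratios had the lower mean in SAP97-cKO, but their ranges overlapped and neither test passed (exact permutation p = 0.0571 for Mrc1 and 0.0857 for Cd74, 0.171 and 0.206 adjusted over the 12 ratios).

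Genes shared by microglia and border macrophages, such as Csf1r, the receptor for colony-stimulating factor 1, were taken as a list of 16. None passed the threshold in edgeR and the median log2 fold change was -0.05. At an unadjusted p under 0.05, 1 gene was lower, where 7.01% of all genes tested were lower. That gene was Lyz2, which encodes lysozyme, at -0.58 (SE 0.22, adjusted p = 0.384). Csf1r itself was at 0.05 (SE 0.08, edgeR adjusted p = 0.808).

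Ratios between the 10 genes were also taken within each library. The ratio of H2-Aa to Mrc1, per kilobase, was 0.690, 1.15, 1.09 and 0.729 in controls and 0.523, 0.678, 0.543 and 0.364 in SAP97-cKO, and the groups did not overlap (exact permutation p = 0.0286, 0.171 adjusted over the 12 ratios). Lyve1 over Mrc1 was 0.790 ± 0.0967 in controls and 0.561 ± 0.135 in SAP97-cKO (SD, n = 4 each; exact permutation p = 0.0571, 0.171 adjusted). By contrast, F13a1 over Mrc1 was 0.649 ± 0.119 and 0.633 ± 0.105 and Cd163 over Mrc1 was 0.535 ± 0.156 and 0.576 ± 0.135, differences well under the spread between mice. None of the 12 ratios passed an adjusted p of 0.05, and the pairs were chosen after the values had been seen. The smallest exact p that 4 libraries against 4 can give is 0.0286. A few separated ratios among 12 therefore could not pass after adjustment, and the lack of a pass decides nothing.

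A further 20 genes known from border-associated macrophages were taken as a list. Of these, 11 passed the filter, 9 were below 0, 0 passed the threshold in edgeR and the median log2 fold change was -0.46. At an unadjusted p under 0.05, 2 were lower, where 7.01% of all genes tested were lower. The 2 were Colec12, a collectin scavenger receptor, and Clec10a, a galactose-type lectin. Colec12 had 466, 602, 442 and 367 normalized counts in controls and 316, 343, 308 and 155 in SAP97-cKO (log2 fold change -0.74, SE 0.23, edgeR adjusted p = 0.347). Clec10a had 16.0, 22.9, 13.6 and 25.2 in controls and 12.2, 5.97, 11.1 and 4.15 in SAP97-cKO (log2 fold change -1.20, SE 0.40, edgeR adjusted p = 0.348). For both genes the SAP97-cKO libraries lay below all controls. Next by p was Gas6, a ligand of the receptors Axl and Mertk, at -0.27 (SE 0.13, edgeR adjusted p = 0.438), a gene that other hippocampal cells also express. The genes above 0 were Stab1 at 0.02 (SE 0.11, edgeR adjusted p = 0.953) and Clec4n at 0.04 (SE 0.31, edgeR adjusted p = 0.966). Which cells gave the RNA of Colec12 and of the rest of this list was not tested.

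Other genes of the MHC class II pathway lay closer to 0 than its 4 genes above. In a list of 20 genes for peptide loading, for transcription of MHC class II and for its costimulation, 16 passed the filter, 0 passed the threshold in edgeR, 10 were below 0 and the median log2 fold change was -0.09. No gene was lower at an unadjusted p under 0.05 and 1 was higher, where 4.73% of all genes tested were higher. This gene was March1, a ubiquitin ligase that removes MHC class II from the cell surface, with 1501, 1369, 1246 and 1536 normalized counts in controls and 1793, 1812, 1713 and 1858 in SAP97-cKO. March1 had a log2 fold change of 0.34 (SE 0.08, edgeR adjusted p = 0.283), and all SAP97-cKO libraries lay above all controls. Its level per kilobase was 5.29 per 1000000 in controls, above the control mean of each of the 10 macrophage genes, though Cd74 (2.27 to 7.68) overlapped it. Which cells gave the RNA of March1 and of the rest of this list was not tested.

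Next by p in the pathway were Ifi30, a lysosomal thiol reductase (log2 fold change -0.52, SE 0.24, edgeR adjusted p = 0.430), and H2-DMa, a chain of the peptide-loading molecule H2-M (0.23, SE 0.12, adjusted p = 0.479). Ciita, the coactivator of MHC class II transcription, had too few reads for the edgeR fit, with 2.00 to 7.77 normalized counts in controls and 4.15 to 8.15 in SAP97-cKO. The groups overlapped (exact permutation p = 0.429), and at this depth a small change would not be seen.

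**Figure D4:**
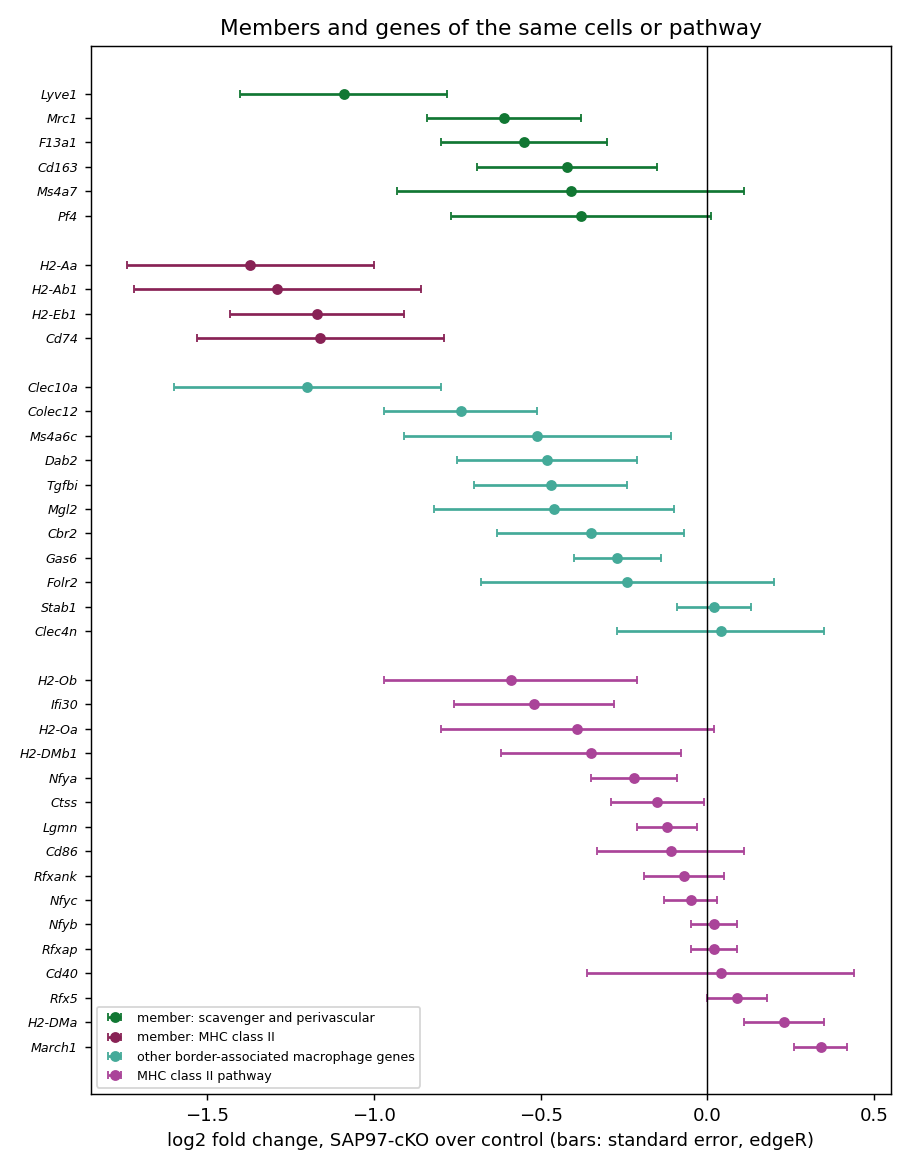
Log2 fold change of each gene (SAP97-cKO over control, horizontal axis; points are edgeR estimates over 4 and 4 libraries, bars their standard error) for the 10 macrophage genes and for the tested genes of both wider lists. The MHC class II genes and Lyve1 lie at -1.37 to -1.09, and the genes of the wider pathway lie between -0.59 and 0.34.

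H2-Ab1, H2-Aa and H2-Eb1 lie side by side within 58986 bp of chromosome 17. In the window that extends 100000 bp to either side, 7 other genes were tested and none passed the threshold. Their log2 fold changes ran from -0.59 for H2-Ob to 0.01 for Tap2, with Psmb9 at -0.40, H2-DMb1 at -0.35, Psmb8 at -0.17 and Tap1 at -0.13. Each was smaller in size than that of H2-Ab1, H2-Aa or H2-Eb1.

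Levels between genes were compared per kilobase of exon and per 1000000 TMM-scaled counts. In controls the order was Cd74 (4.25 ± 2.42, SD, n = 4), H2-Eb1 (1.55 ± 0.52), Pf4 (1.12 ± 0.577), H2-Ab1 (0.984 ± 0.454), Mrc1 (0.806 ± 0.24), H2-Aa (0.744 ± 0.356), Lyve1 (0.637 ± 0.189), F13a1 (0.503 ± 0.0725), Cd163 (0.41 ± 0.0757) and Ms4a7 (0.0995 ± 0.0699). Only Cd74 and H2-Eb1 at the top and Cd163 and Ms4a7 at the bottom did not overlap with their neighbour over the 4 control libraries. In between, the order of adjacent genes is within the spread. Genes further apart could be separate: the lowest control value of H2-Eb1 (0.991) was above the highest of Lyve1 (0.803). In SAP97-cKO, Cd74 (1.90 ± 0.575) was again first and Ms4a7 (0.0745 ± 0.0343) last, while H2-Aa stood ninth (0.287 ± 0.109) and Lyve1 eighth (0.298 ± 0.106). The annotated model of H2-Ab1 begins before the position in the deposited table (34263009), and the exon length, and so its level per kilobase, depends on which is used. All 10 levels were low beside that of P2ry12, a gene of microglia (17.8 per kilobase per 1000000 in controls).

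The spread between mice also differed among the genes. In controls the coefficient of variation ran from 14.4% for F13a1 and 18.5% for Cd163 to 56.9% for Cd74 and 70.2% for Ms4a7, and in SAP97-cKO from 21.0% for H2-Eb1 to 52.6% for H2-Ab1.

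Cells that could add to these genes were checked by their own markers. Of 10 B and T cell genes 2 were tested and 0 passed, and Ms4a1, a defining gene of B cells, had 0 to 1.04 normalized counts per library. Ighm, an immunoglobulin heavy chain gene, had 322 to 651 in controls, highest in control 2, and 342 to 497 in SAP97-cKO. Its log2 fold change was -0.25 (SE 0.19, edgeR adjusted p = 0.607), and that of Cd4, the other gene tested, was 0.41 (SE 0.43, edgeR adjusted p = 0.699). Of 8 dendritic cell genes 5 were tested, 0 passed and the median log2 fold change was -0.04, with Flt3 at -0.26 (edgeR adjusted p = 0.526). Cd209a, a lectin of this list with too few reads for the fit, had 10, 16.9, 11.7 and 11.6 normalized counts in controls and 7.13, 5.97, 2.03 and 4.15 in SAP97-cKO, 38.4% of the control mean and without overlap (exact permutation p = 0.0286), and it was singled out after its values were seen. The part of dendritic cells and of B cells in the MHC class II values was not tested. Of 6 platelet genes 4 were tested and 0 passed, and Ppbp, an abundant platelet chemokine, had 0 to 4.07 normalized counts. Itga2b, an integrin gene of this list, had 33.0 to 67.8 in controls and 34.3 to 49.8 in SAP97-cKO. Its log2 fold change was -0.07 (SE 0.27, edgeR adjusted p = 0.936), and 3 of the 4 tested genes were below 0. The gene above 0 was Gp9, which had the largest change of the list (0.63, SE 0.39, edgeR adjusted p = 0.526). Of 6 lymphatic endothelial genes 4 were tested and 0 passed. Ccl21a was at 0 in all libraries but SAP97-cKO 2, whereas Prox1, at 2435 to 6466, is also a gene of dentate granule neurons.

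The 3 genes most like Mrc1 and the 3 most like Cd74 were taken by Pearson's r of log2 CPM over the 8 libraries, among 16241 genes and as a description only. Those like Mrc1 were Plscr4, Bmp4 and Foxd1 (r = 0.96 each), and those like Cd74 were Ecm2 (r = 0.99), Slco1c1 (0.99) and Timp3 (0.98). Ecm2, a matrix protein gene, had 326, 471, 401 and 315 normalized counts in controls and 286, 295, 293 and 226 in SAP97-cKO, with control 2 highest and SAP97-cKO 4 lowest. None of the 6 genes passed the threshold in edgeR, and their log2 fold changes ran from -0.87 for Foxd1 to -0.28 for Plscr4.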

How the data were processed

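RNA of 1 hippocampus library per mouse was sequenced by the authors, aligned to the mouse genome and quantified per gene. Per the labels and methods, STAR 2.5.3a and PORT were used, and PORT is described as removing ribosomal and mitochondrial reads and as resampling libraries to a common depth, which leaves nearly equal totals and discards part of the deeper libraries. Mitochondrial genes still held 3.73% to 4.93% of the deposited counts. The deposited values are whole-number counts per gene, not scaled further. Whether counting used strand is not given in the sources used here. Columns with fold changes, p-values and q-values of the authors' own comparison were not used. Positions are those of GRCm38, and 25696 of 25834 gene IDs matched GENCODE.

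Counts were filtered with filterByExpr, which left 16251 genes and removed 9583, scaled by TMM (factors 0.9637 to 1.031) and tested with edgeR 4.0.16 (quasi-likelihood) in R 4.3.3, at an FDR threshold of 0.25 (Benjamini-Hochberg, all 16251 genes). The study used limma-voom, run here as an alternative (limma 3.58.1), as was DESeq2 1.42.0. The edgeR fit was tested on simulated data. Single genes were also compared by an exact two-sided permutation test over 70 assignments. No pair of libraries agreed within sampling noise. The other alternatives were RLE scaling, no scaling, other filters on low counts, a stricter FDR, a replicate block, marker lists as covariates and leaving out libraries.

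The 10 genes and all lists were chosen with earlier results of these data known. Named with values were the 10 genes, Dlg1, the genes past the threshold in a list or otherwise those with the smallest p (3 in the macrophage and MHC class II lists), reference genes of each cell type, and the genes most alike to Mrc1 and Cd74. Genes named outside that rule were chosen after their values were seen.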

Additional observations from a re-analysis of the deposited data

Results flagged for a closer look

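In 9 of 50 groups of 4 libraries, 1 library stood apart from the other 3 by Dixon's test at the 95% level, where chance gives about 1 in 20 groups, and groups of related genes are not independent. SAP97-cKO 4 was the low library for Mrc1 (86.2 normalized counts), Cd74 (65.4) and H2-Eb1 (34.3). Control 2 was the high library for Ms4a7 (33.9) and H2-Aa (181). Among the summed lists, control 2 was high for meningeal fibroblast genes (23249), control 4 was high for microglia genes (18868) and low for lymphatic endothelial genes (5086), and SAP97-cKO 1 was high for general macrophage genes (14874). Of the lymphatic endothelial sum in control 4, Prox1 gave 3397 and Reln 1366. Prox1 is also a gene of dentate granule neurons, so this sum does not measure lymphatic endothelium alone. The cause of these values was not tested.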

How the results depend on the processing

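All 10 genes were below 0 on the log2 scale and 0 passed an FDR of 0.25 in edgeR, where 46 genes were lower and 2 higher over all genes and 6 of the 10 had an unadjusted p under 0.05. The number of the 10 that passed was 6 with DESeq2 (588 lower and 445 higher over all genes), 1 without scaling (94 and 1), 2 without a filter (89 and 15) and 3 with the microglia covariate (538 and 478). The fibroblast covariate gave 0 of the 10, 0 genes passing in either direction and 613 with an unadjusted p under 0.05, and with the choroid plexus covariate 15 genes were lower and 1 higher. At an FDR of 0.05 edgeR called 0 genes. RLE scaling and a minimum of 10 counts each gave 33 lower and 2 higher. The cause of these shifts was not tested.

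Leaving out 1 library in turn, the number of the 10 that passed ran from 0 to 5, with 5 without control 1 (Cd74, H2-Aa, H2-Ab1, H2-Eb1 and Lyve1) and 3 without SAP97-cKO 1 (H2-Aa, H2-Eb1 and Lyve1), and over all genes 0 to 960 were lower and 0 to 715 higher. It was 0 genes without control 2, SAP97-cKO 3 or SAP97-cKO 4, where 1403, 1259 and 1167 genes had an unadjusted p under 0.05, respectively. Without both control 2 and SAP97-cKO 4, chosen after seeing the data, 0 genes passed, 846 had an unadjusted p under 0.05, and 4 of the 10 did.

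Signs turned with the fibroblast covariate for Mrc1 (0.26), Cd163 (0.14), F13a1 (0.36), Pf4 (0.94), Ms4a7 (1.66), Cd74 (0.30), H2-Aa (0.27) and H2-Ab1 (0.44), leaving 2 genes below 0 and 0 at an unadjusted p under 0.05. They turned with the choroid plexus covariate for Pf4 (0.00) and Ms4a7 (0.04), without control 2 for Ms4a7 (0.20, where its values without 1 library ran from -0.61 to 0.20), and without control 2 and SAP97-cKO 4 for Pf4 (0.17) and Ms4a7 (0.49), leaving 8 below 0.

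The replicate numbers were not shown to pair the mice, since the deviations of same-numbered libraries correlated at -0.062, 0.201, 0.09 and 0.259. With a replicate block, 4 of the 10 genes passed (Cd74, H2-Aa, H2-Ab1 and H2-Eb1), with 234 genes lower and 22 higher over all genes, and not every library correlated best with its own number. Depth limits Ms4a7, Pf4 and Ciita, whose low counts leave a wide counting error.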

Other observations

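Of the monocyte and neutrophil genes, only Ccr2, the receptor that brings monocytes into tissue, had enough reads to be tested. It had 17, 17.9, 16.5 and 13.6 normalized counts in controls and 11.2, 5.97, 4.05 and 2.08 in SAP97-cKO (log2 fold change -1.46, SE 0.44, edgeR adjusted p = 0.338), with every SAP97-cKO library below every control. All 5 genes of the blood list were below 0 with a median log2 fold change of -0.55 and 0 past the threshold in edgeR, among them Hbb-bt, a beta globin, at -0.77 (SE 0.29, adjusted p = 0.371). All 8 endothelial genes were below 0, where 52.8% of all genes tested were, with a median of -0.18 and 0 past the threshold. They ran from Ly6c1 at -0.31 to Flt1 at -0.00 (SE 0.17, edgeR adjusted p = 0.998), with Cldn5, a tight junction protein, at -0.25. Of 8 hippocampal neuron genes 7 were above 0 and 0 passed the threshold, with Camk2a at 0.28 (SE 0.10, edgeR adjusted p = 0.374) and Slc17a7 at 0.24 (SE 0.09, adjusted p = 0.376). At an unadjusted p under 0.05, 3 were higher, where 4.73% of all genes tested were higher.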
